A study of Mus musculus with 8 samples.

Results

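The clustered histone genes are the replication-dependent genes for the linker histone H1 and the core histones H2A, H2B, H3 and H4, and their expression was followed in the spleens of wild-type and TTPΔARE mice. Members were all rows of the expression table whose older symbol starts with Hist1h, Hist2h, Hist3h or Hist4h, which gave 66 of 23517 transcripts and 65 of 17738 gene symbols. By type they were 5 H1 transcripts, 17 of H2A, 20 of H2B (19 symbols), 11 of H3 and 13 of H4. The older symbols name the cluster before the histone type, and 52 of the 65 transcripts that could be placed on GRCm38 (mm10) lay on chromosome 13 (the Hist1 cluster), 10 on chromosome 3 (Hist2), 2 on chromosome 11 (Hist3) and 1 on chromosome 6 (Hist4). The 8 spleens came from male C57BL/6 mice of 8 to 12 weeks, 4 wild-type and 4 with the TTPΔARE allele, which removes an AU-rich element from the mRNA of Zfp36, the gene for the RNA-binding protein tristetraprolin. Neither group was treated, the altered allele is carried by all cells of the animal, and the labels give neither zygosity nor any litter, batch or pairing. Each spleen is named by its group and a replicate number, given only to tell the spleens apart.

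Replication-dependent histone mRNAs supply the protein that packages newly made DNA, and their level rises in S phase and drops when DNA synthesis stops. They are the one class of animal mRNA that ends in a conserved stem-loop in place of a poly(A) tail. Stem-loop binding protein (SLBP) holds this structure, the U7 small nuclear RNP directs the cut just after it, and SLBP stays with the mRNA for translation and decay. Some of these genes also make polyadenylated forms in cells that have left the cycle, and library protocols that select poly(A) RNA lose most of the stem-loop form. The labels do not state whether poly(A) RNA was selected, so low values below may not be low amounts of mRNA.

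The stem-loop, which sets these mRNAs apart, was searched for after the stop codon in the GENCODE M21 transcript of each member. It was found in 44 of the 65 matched members, in 8 spellings, and began 21 to 58 bases after the stop codon (median 31). Of 21595 other coding transcripts in the table, 2 had such a match within 100 bases after the stop codon (0.00926%), H2afx and Tmem194. The spelling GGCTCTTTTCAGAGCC was found in 26 members, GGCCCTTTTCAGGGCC in 7 and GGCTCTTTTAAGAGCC in 4. Sequences are shown for the most abundant H1, H2A and H4 members, 2 further members whose levels are compared below, and 1 H3 member, 5′ to 3′ on the coding strand, with the stem-loop in capitals and up to 5 flanking bases in lower case.

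Hist1h1c (chr13:23739512-23739527, + strand): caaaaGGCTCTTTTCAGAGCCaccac
Hist3h2a (chr11:58955172-58955187, + strand): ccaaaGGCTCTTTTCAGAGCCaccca
Hist2h2aa2 (chr3:96239784-96239799, - strand): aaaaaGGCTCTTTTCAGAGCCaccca
Hist1h2bg (chr13:23571843-23571858, + strand): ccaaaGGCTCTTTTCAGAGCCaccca
Hist2h3c1 (chr3:96247327-96247342, + strand): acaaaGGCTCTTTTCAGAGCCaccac
Hist1h4i (chr13:22040966-22040981, - strand): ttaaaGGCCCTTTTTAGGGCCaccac

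The H1, H2A, H2B and H3 members shown share 1 spelling, and the H4 member has another, found in 2 members. Of the 21 members without a match, 14 have an annotated transcript that stops at or just after the coding sequence, so no downstream sequence was there to search. In RefSeq (GRCm38.p6), 34 of the 44 members with a stem-loop have a gene end no more than 5 bases beyond it. GENCODE places the end of many of them further on, and 17 of 65 members (26.2%) hold a poly(A) signal, AATAAA or ATTAAA on the coding strand, within 40 bases of the GENCODE end, against 72.8% of the other coding transcripts. The median of the members' mean levels was 0.193 FPKM in those 17, of which 6 reached a mean of 0.5 FPKM, and 0.101 FPKM in the other 48, of which 7 did. FPKM is the fragment count scaled for transcript length and sequencing depth, so levels can be compared between genes. The lengths used by the authors are not given, and a model that runs past the end of the true mRNA gives a lower FPKM. By the steps described below, Hist1h4c and Hist1h4d both fit 622 bases, while their GENCODE lengths are 820 and 1138 bases. The lengths counted thus need not be those of GENCODE, and the medians above are split by GENCODE ends only.

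Most clustered histone transcripts were near the detection limit in every spleen. The median of their mean levels over the 8 spleens was 0.118 FPKM, against 2.12 FPKM over all transcripts of the table, and 30 of 66 had a mean under 0.1 FPKM. A mean of at least 0.5 FPKM, the minimum for testing, was reached by 13 of 66 members (19.7%), against 70.6% of all transcripts. The tested members were 1 H1, 3 H2A, 4 H2B and 5 H4 transcripts and no H3 transcript. Just under the minimum was Hist2h3c1, an H3 gene, at 0.495 FPKM, and just over it Hist1h4n, an H4 gene, at 0.537 FPKM. The median by type was 0.135 FPKM for H1, 0.0933 for H2A, 0.108 for H2B, 0.0762 for H3 and 0.343 for H4. In each type a few genes held most of the summed level, as the plot of mean levels by type shows.

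**Figure D1:**
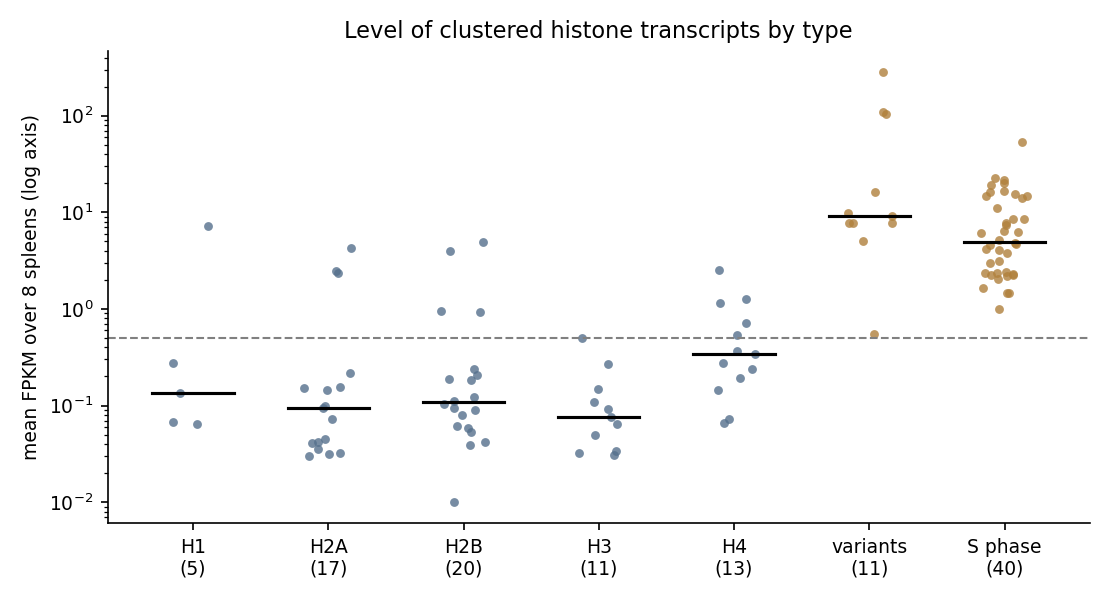
Mean FPKM over the 8 spleens (log axis) of each clustered histone transcript by type, and of the histone variant genes outside the clusters and the S phase genes, with the number of transcripts in brackets. Black lines are medians, the dashed line is the 0.5 FPKM minimum for testing, and 13 of the 66 clustered transcripts lie above it while all 11 variant and 40 S phase genes do.

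The number of members listed at 0 was 12, 18, 17 and 14 in the wild-type spleens and 9, 19, 15 and 15 in the TTPΔARE spleens, so both groups covered much the same range. At least 1 spleen was at 0 for 37 members, at least 4 spleens for 18, and no member was at 0 in all. The depth, estimated from the steps between low values, was 28.3 to 32.2 M fragments per spleen. For 58 members some length from 300 to 3000 bases made the values whole multiples of a single step in every spleen, within 0.05. The shortest such length was taken, and values at 0 fit any length. A fit therefore says little for members with few values above 0, and the steps are not fragment counts. For 51 of the untested members these steps came to 1 to 130 over all 8 spleens together, with a median of 13, and for several genes a step may stand for 0.5 of a fragment. Hist1h2ba, a testis-specific H2B gene, was at 0.0809 FPKM in wild-type replicate 4 and listed at 0 in the other 7 spleens. How large a difference could have been detected in the low members was not measured. With few steps in most of them, small differences could be missed.

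Genes outside the clusters gave a reference level. The replacement variants H3f3a and H3f3b encode histone H3.3, which is deposited outside replication and whose mRNAs carry poly(A) tails. H3f3a stood at 295 ± 25.5 FPKM in wild-type and 268 ± 19.5 FPKM in TTPΔARE (SD, n = 4 each), and H3f3b at 113 ± 20.3 and 105 ± 2.04 FPKM. All 11 clustered H3 transcripts together summed to 1.51 ± 0.288 FPKM in wild-type and 1.29 ± 0.343 FPKM in TTPΔARE. The 40 S phase genes had a median level of 4.99 FPKM, and Pcna, the sliding clamp of DNA polymerase, reached 53.7 FPKM. RNAs without a poly(A) tail outside the histone class were low as well: 9 of 41 rows of small nucleolar, RNase and related RNAs reached 0.5 FPKM, their median was 0.151 FPKM, and the highest, Rmrp, had 6.64 FPKM. Many of these RNAs are short or lie within introns of other genes, and the part of library preparation in their levels or in those of the histones was not tested.

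No clustered histone transcript differed between TTPΔARE and wild-type spleens past an adjusted p of 0.05. The test was limma on log2(FPKM + 0.5) over 16608 transcripts, adjusted over all of them, and 0 of 13 members passed, with adjusted p from 0.0913 to 0.973. Over all transcripts 333 were higher and 331 lower in TTPΔARE, 4.00% of those tested, and leaving out 1 spleen gave 93 to 437 and 104 to 332, fewest without TTPΔARE replicate 3. At an unadjusted p under 0.05 there were 3 of 13 members (23.1%), Hist1h4k and Hist3h2a higher and Hist2h2aa2 lower, against a background of 21.1% of all transcripts tested. Groups did not overlap for 1 of 13 members (7.69%), Hist3h2a, against 12.5% of all transcripts. Of the 13 log2 differences 8 were above 0 and 5 below, with a median of 0.017, against 0.003 over all transcripts. The 95% confidence intervals reached 0.13 to 0.39 to either side, from the most precise member, Hist2h2be (-0.06 to 0.20), to the least precise, Hist1h4n (-0.60 to 0.18).

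**Figure D2:**
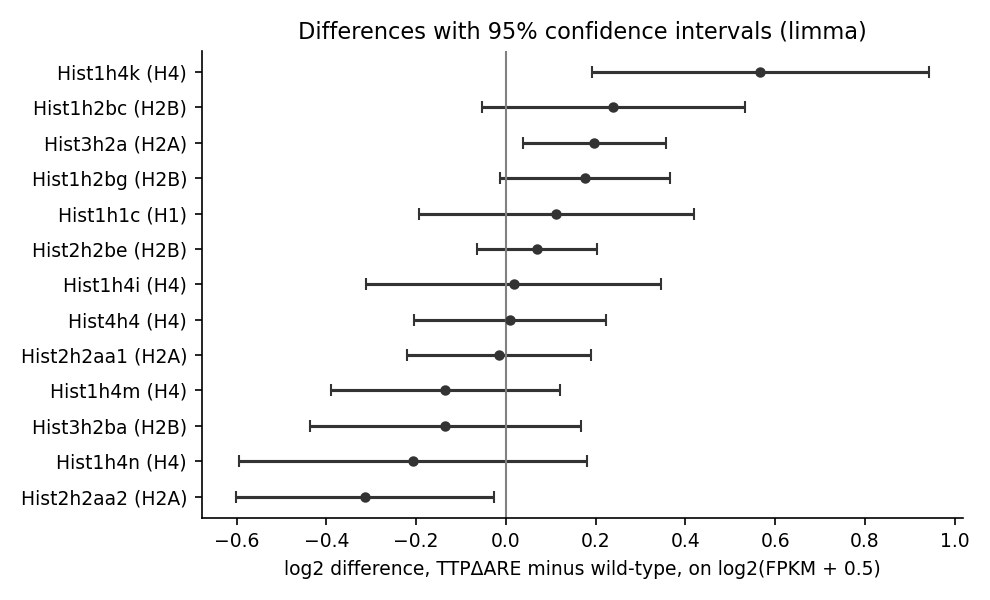
Log2 difference (TTPΔARE minus wild-type, on log2(FPKM + 0.5)) of the 13 tested clustered histone transcripts, with 95% confidence intervals from limma (n = 4 spleens each). Estimates run from -0.31 for Hist2h2aa2 to 0.57 for Hist1h4k, and 10 of the 13 intervals include 0.

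Among the H1 genes, Hist1h1c had the highest level of any member, and the other 4 had means over the 8 spleens of 0.0641 to 0.274 FPKM. Hist1h1c encodes the linker histone H1.2, which binds DNA between nucleosomes. Its level was 6.89, 6.24, 9.35 and 5.34 FPKM in wild-type replicates 1 to 4 and 7.65, 6.27, 8.21 and 7.63 FPKM in the TTPΔARE replicates. Wild-type replicate 3 was the highest of all 8 spleens and wild-type replicate 4 the lowest, so the TTPΔARE values fell within the wild-type range. The difference was 0.11 log2 (SE 0.139, limma adjusted p = 0.704). The other H1 genes, Hist1h1a, Hist1h1b, Hist1h1d and Hist1h1e, summed to 0.581 ± 0.121 FPKM in wild-type and 0.497 ± 0.0898 FPKM in TTPΔARE (SD, n = 4).

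Of the 17 H2A transcripts, Hist3h2a, Hist2h2aa1 and Hist2h2aa2 were above 0.5 FPKM, and the other 14 had means of 0.0298 to 0.218 FPKM. Hist3h2a, the H2A gene of the cluster on chromosome 11, was at 4.23, 3.99, 3.99 and 3.51 FPKM in wild-type and 4.89, 4.28, 4.82 and 4.32 FPKM in TTPΔARE. Every TTPΔARE spleen was above every wild-type spleen, by a narrow margin. The groups stood at 3.93 ± 0.301 and 4.58 ± 0.324 FPKM, a difference of 0.20 log2 (SE 0.0723, limma adjusted p = 0.149).

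Hist2h2aa1 and Hist2h2aa2 are neighbouring copies on chromosome 3, at 96245497 to 96246082 and 96239749 to 96240276, and share exact runs of over 100 bases, so how their reads were divided is uncertain. Hist2h2aa1 was at 2.96, 2.37, 2.36 and 2.26 FPKM in wild-type and 2.64, 2.15, 2.73 and 2.31 FPKM in TTPΔARE. These ranges overlapped, and the difference was -0.02 log2 (limma adjusted p = 0.952). Hist2h2aa2 was at 2.57, 2.73, 2.80 and 2.36 FPKM in wild-type and 1.70, 2.93, 1.82 and 1.74 FPKM in TTPΔARE. Here 3 TTPΔARE spleens lay below all wild-type spleens while TTPΔARE replicate 2 was the highest of the 8. The difference was -0.31 log2 (SE 0.131, limma adjusted p = 0.199), and without TTPΔARE replicate 2 it was -0.47 log2 and passed the threshold (limma adjusted p = 0.0134). With any other single spleen left out the limma adjusted p was 0.231 to 0.406. The sum of the pair, which depends less on how reads were split between them, was 5.10 ± 0.378 FPKM in wild-type and 4.50 ± 0.434 FPKM in TTPΔARE, with overlapping ranges of 4.62 to 5.54 and 4.05 to 5.08 FPKM.

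**Figure D3:**
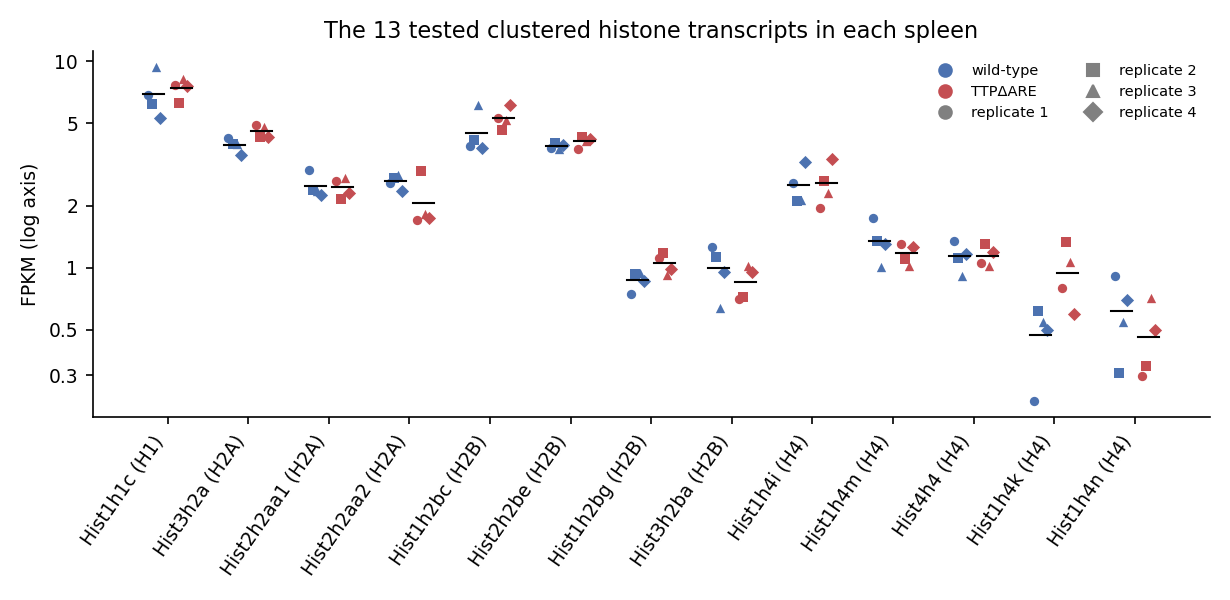
FPKM (log axis) of the 13 tested clustered histone transcripts in each of the 8 spleens, ordered by type and level. Marker shape gives the replicate number within a group and black lines are group means (n = 4); wild-type replicate 3 is the highest wild-type spleen for Hist1h1c and Hist1h2bc, and only for Hist3h2a do the groups not overlap.

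Among the H2B genes, Hist1h2bc and Hist2h2be reached several FPKM, Hist1h2bg and Hist3h2ba about 1, and the other 16 transcripts had means of 0.0101 to 0.238 FPKM. Hist1h2bc was at 3.88, 4.16, 6.17 and 3.80 FPKM in wild-type and 5.30, 4.64, 5.20 and 6.18 FPKM in TTPΔARE. Apart from wild-type replicate 3, every wild-type spleen was below every TTPΔARE spleen. The difference was 0.24 log2 (SE 0.133, limma adjusted p = 0.340) with all spleens and 0.39 log2 (limma adjusted p = 0.0408) without wild-type replicate 3. With any other single spleen left out the limma adjusted p was 0.266 to 0.590. GENCODE gives this gene a transcript of 2 exons with no stem-loop match after its stop codon. No stem-loop match was found for Hist2h2be either, whose GENCODE transcript of 2620 bases ends near a poly(A) signal.

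Hist2h2be had the narrowest spread of the tested members relative to its level. It was at 3.79, 4.01, 3.77 and 3.93 FPKM in wild-type and 3.77, 4.28, 4.12 and 4.21 FPKM in TTPΔARE. The groups overlapped through TTPΔARE replicate 1, the lowest spleen, and the difference was 0.07 log2 with a 95% interval of -0.06 to 0.20 (limma adjusted p = 0.566). Hist1h2bg was at 0.746, 0.933, 0.944 and 0.859 FPKM in wild-type and 1.11, 1.18, 0.924 and 0.984 FPKM in TTPΔARE, where 3 of the 4 spleens were above all wild-type spleens. The difference was 0.18 log2 (SE 0.0863, limma adjusted p = 0.271). Hist3h2ba, the H2B neighbour of Hist3h2a in the chromosome 11 cluster, was at 1.25, 1.13, 0.634 and 0.952 FPKM in wild-type and 0.702, 0.723, 1.02 and 0.951 FPKM in TTPΔARE. It was thus lowest in wild-type replicate 3, where Hist1h2bc was high, and the difference was -0.13 log2 (SE 0.137, limma adjusted p = 0.634).

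H3 was the type with the lowest levels, and none of its 11 transcripts was tested. The highest, Hist2h3c1, was at 0.348, 0.559, 0.580 and 0.460 FPKM in wild-type and 0.324, 0.529, 0.554 and 0.604 FPKM in TTPΔARE, so the lowest and the highest spleen were both TTPΔARE. Hist2h3c2, also of the chromosome 3 cluster, had a mean of 0.269 FPKM, and the chromosome 13 H3 genes had at most 0.109 FPKM (Hist1h3i). All but 2 of the 11 were at 0 in at least 1 spleen.

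H4 genes had the highest median of the 5 types and the most tested members. Hist1h4i was the leading H4 gene at 2.58, 2.10, 2.13 and 3.26 FPKM in wild-type and 1.94, 2.64, 2.30 and 3.37 FPKM in TTPΔARE. The 2 highest spleens were replicate 4 of each group, and the difference was 0.02 log2 (SE 0.150, limma adjusted p = 0.967). Hist4h4, the H4 gene on chromosome 6, and Hist1h4m also overlapped between the groups, with means of 1.14 and 1.26 FPKM and differences of 0.01 log2 (limma adjusted p = 0.973) and -0.13 log2 (limma adjusted p = 0.557). Hist1h4n, on chromosome 13, was at 0.905, 0.307, 0.547 and 0.697 FPKM in wild-type and 0.299, 0.331, 0.708 and 0.497 FPKM in TTPΔARE, and both ranges were wide. Its difference was -0.21 log2 (SE 0.177, limma adjusted p = 0.554). With means of 0.614 FPKM in wild-type and 0.459 FPKM in TTPΔARE, it passed the 0.5 FPKM minimum only through the wild-type group.

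Hist1h4k had the largest difference of all tested members and the smallest adjusted p. Its wild-type mean was under the 0.5 FPKM minimum, so it entered the test only through the TTPΔARE group, where it was higher. It was at 0.226, 0.613, 0.547 and 0.498 FPKM in wild-type and 0.797, 1.33, 1.06 and 0.597 FPKM in TTPΔARE. The lowest TTPΔARE spleen was below the highest wild-type spleen, and the other 3 were above all wild-type spleens. The group levels were 0.471 ± 0.170 and 0.946 ± 0.317 FPKM (SD, n = 4), a difference of 0.57 log2 (SE 0.171, 95% interval 0.19 to 0.94, limma adjusted p = 0.0913). Behind these values were 4, 12, 10 and 10 steps in wild-type and 16, 24, 21 and 12 in TTPΔARE. The step fits a length of 623 bases against 312 in the GENCODE model, so a step may be 0.5 of a fragment and the counts are small. The 8 untested H4 transcripts summed to 1.43 ± 0.184 FPKM in wild-type and 1.97 ± 0.395 FPKM in TTPΔARE, with ranges of 1.20 to 1.61 and 1.45 to 2.40 FPKM that overlap. This difference, 38.0% of the wild-type mean, was the largest among the untested sums by type. The untested sums of H1, H2A, H2B and H3 differed by -14.4, 11.8, -6.64 and -14.9%. The sum of all 13 H4 transcripts differed by 9.81%. All 53 untested members together summed to 6.38 ± 0.681 and 6.64 ± 1.06 FPKM, a difference of 3.93%.

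Summed over a type, the spleens of the 2 genotypes overlapped for each of the 5 histone types. The H1 sum was 7.49, 6.90, 10.02 and 5.74 FPKM in wild-type and 8.11, 6.85, 8.77 and 8.02 FPKM in TTPΔARE, so wild-type replicate 3 was again the highest. The H2A sum was 11.4, 9.91, 10.1 and 9.19 FPKM in wild-type and 11.1, 10.5, 10.6 and 9.19 FPKM in TTPΔARE. The H2B sum was 11.7, 12.2, 13.1 and 10.9 FPKM in wild-type and 12.9, 11.8, 12.6 and 14.5 FPKM in TTPΔARE. The H4 sum was 7.99, 7.08, 6.52 and 8.46 FPKM in wild-type and 7.43, 8.15, 8.51 and 8.91 FPKM in TTPΔARE. No spleen was first or last in every type: wild-type replicate 3 was highest for H1 and lowest for H4, and TTPΔARE replicate 4 was highest for H2B and H4 and, next to wild-type replicate 4, lowest for H2A. All 66 members summed to 38.7 ± 2.72 FPKM in wild-type and 40.8 ± 1.74 FPKM in TTPΔARE (SD, n = 4 each).

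**Figure D4:**
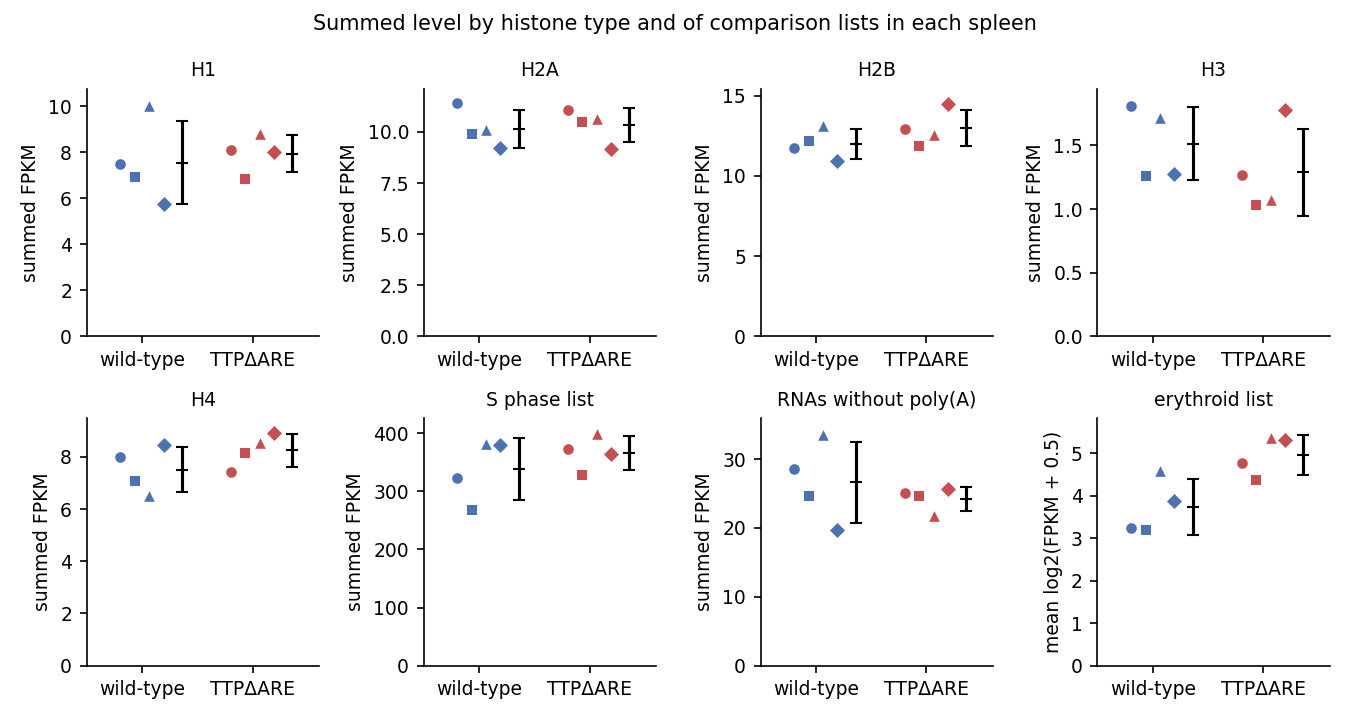
Summed FPKM of the clustered histone transcripts by type, of the S phase genes and of RNAs without a poly(A) tail, and mean log2(FPKM + 0.5) of the erythroid markers, in each spleen. Marker shape gives the replicate number and bars the mean ± SD (n = 4); the histone sums overlap between genotypes, and the erythroid panel shows wild-type replicate 3 within the TTPΔARE range of 4.38 to 5.36.

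S phase and mitotic genes, which mark cycling cells, were set beside the histone sums in each spleen. The S phase sum was 323, 269, 382 and 380 FPKM in wild-type and 372, 328, 399 and 364 FPKM in TTPΔARE, and the sum of 20 G2 and mitosis genes was 99.7, 61.5, 129 and 139 FPKM and 117, 102, 128 and 120 FPKM. Wild-type replicate 2 was the lowest spleen in both lists, while its histone sum of 37.3 FPKM was above that of wild-type replicate 4 (35.6 FPKM). Across the wild-type spleens the SD was 7.04% of the mean for the sum of all members, 15.9% for S phase and 32.4% for G2 and mitosis. For single histone types it was 24.0% for H1, 9.10% for H2A, 7.60% for H2B, 19.0% for H3 and 11.7% for H4. The H1 and H3 sums thus varied more than the S phase sum in wild-type. The H1 sum was mostly Hist1h1c (means of 7.74 and 7.20 FPKM), and the H3 sum averaged 1.40 FPKM. In TTPΔARE the SD was 4.26% of the mean for all members, 7.96% for S phase and 9.41% for G2 and mitosis. There H1, H2B (8.65%) and H3 (26.6%) were above the S phase value, and H2A (7.84%) and H4 (7.61%) below it. By genotype, 0 of 40 S phase genes and 0 of 20 G2 and mitosis genes passed the limma threshold, against 4.00% of all transcripts tested. At an unadjusted limma p under 0.05 were 2 and 1 of them, against 21.1% of all transcripts tested. The median log2 differences of the S phase and the G2 and mitosis genes were 0.11 and 0.15, against 0.003 over all transcripts. Above 0 were 31 of 40 and 16 of 20 of them, against 51.0% of all transcripts tested. The lists were not tested as sets.

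Genes that make and use histone mRNA did not pass the limma threshold either. Slbp, which binds the stem-loop, was at 20.2 ± 2.18 FPKM in wild-type and 22.7 ± 2.84 FPKM in TTPΔARE (0.17 log2, limma adjusted p = 0.376). Npat, the coactivator of histone gene transcription, was at 3.21 ± 0.118 and 3.39 ± 0.276 FPKM (0.07 log2, limma adjusted p = 0.638), and Casp8ap2, a factor of the histone locus body, at 2.36 ± 0.222 and 2.39 ± 0.172 FPKM (0.02 log2, limma adjusted p = 0.933). In all, 0 of 20 tested genes of histone mRNA transcription and 3′ processing, 0 of 17 histone chaperone genes and 0 of 11 variant genes passed. Among all transcripts tested 4.00% passed, so a count of 0 in lists this short says little. None of these list genes had an unadjusted limma p under 0.05, against 21.1% of all transcripts tested. The median log2 differences of these lists, in the same order, were -0.03, 0.01 and -0.02. H2afx, a variant gene known to make both a stem-loop and a polyadenylated mRNA, had the smallest p of the variants, with 7.11 ± 1.08 and 8.27 ± 1.22 FPKM (0.21 log2, limma adjusted p = 0.357).

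Some markers of red cell precursors, platelets and neutrophils were higher in TTPΔARE, and these lists are given by spleen beside wild-type replicate 3, the spleen highest for Hist1h1c. In bulk tissue, fewer cells of a type and less RNA per cell cannot be told apart. As background to the counts past the threshold below, 4.00% of the 16608 transcripts tested passed, 333 higher and 331 lower. Of 24 erythroid markers found, 7 were higher in TTPΔARE past the threshold (2 to 23 when 1 spleen was left out, fewest without wild-type replicate 4 or TTPΔARE replicate 3), all 24 had a log2 difference above 0 (median 1.20), and none was at 0 in any spleen. Their mean log2(FPKM + 0.5) was 3.25, 3.19, 4.59 and 3.88 in wild-type and 4.78, 4.38, 5.36 and 5.32 in TTPΔARE, so wild-type replicate 3 lay within the TTPΔARE range. The sum of the same markers, which the globins dominate, gave another order, 9684, 11360, 6722 and 6142 FPKM in wild-type and 14737 to 22580 FPKM in TTPΔARE. The summed neutrophil markers were highest of all spleens in wild-type replicate 3, at 290 FPKM against 100 to 163 FPKM in the other wild-type spleens and 148 to 259 FPKM in TTPΔARE. Megakaryocyte and platelet markers summed to 93.2 FPKM there, against 48.7 to 57.7 and 67.3 to 111 FPKM. Of each of these 2 lists 2 of 10 tested markers were higher past the threshold (1 to 8 and 0 to 3 when 1 spleen was left out, most without wild-type replicate 3), and none was lower. Of the lymphoid lists, 2 of 10 B cell, 1 of 9 plasma cell, 0 of 8 germinal centre B cell and 0 of 10 T cell markers passed. Those 3 were lower, with 0 to 2 for the plasma cell list when 1 spleen was left out. At an unadjusted limma p under 0.05 were 7, 5, 1 and 5 markers, against 21.1% of all transcripts tested. Of the 10 B cell markers 1 had a log2 difference above 0 (median -0.21). Cd79b, the highest of them, was at 225 ± 16.03 FPKM in wild-type and 187 ± 12.3 FPKM in TTPΔARE (-0.27 log2, limma adjusted p = 0.0664). The part of cell makeup in the values of Hist1h1c, Hist1h2bc and the other members was not tested. Zfp36 itself was at 40.3 ± 3.91 FPKM in wild-type and 52.9 ± 4.90 FPKM in TTPΔARE (limma adjusted p = 0.0323, and 0.0668 to 0.108 when any of 5 spleens was left out).

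Many H2A and H2B genes lie head to head and share the short stretch between their starts, which carries the promoters of both. In the RefSeq gene spans there were 11 such pairs, with 163 to 267 bases between the genes. The H2B gene had the higher mean level in 9 of the 11, as the plot of neighbouring pairs shows. In 3 pairs the H2B gene had a mean above 0.5 FPKM, a choice that itself favours a large ratio. Hist1h2bc had 34.3 times the level of Hist1h2ac (4.92 against 0.143 FPKM), Hist2h2be 26.2 times that of Hist2h2ac (3.99 against 0.152 FPKM) and Hist1h2bg 6.23 times that of Hist1h2ae (0.960 against 0.154 FPKM). In the other 8 pairs both genes were under 0.5 FPKM and the higher had a median of 2.23 and at most 5.03 times the level of the lower (Hist1h2bf over Hist1h2ad). Some of these genes rest on few steps over all 8 spleens, such as 3 for Hist1h2an, 6 for Hist1h2bp and 4 for Hist1h2ad. Which gene is higher is therefore uncertain in the closest pairs. The ratios of all 11 pairs rest on the lengths by which FPKM divides, which are not given and may differ from those of GENCODE. For Hist1h2ac the GENCODE model is 2482 bases long.

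The stretches between the genes of the 3 pairs with an H2B gene above 0.5 FPKM are printed from RefSeq promoter windows on the + strand of GRCm38, from the H2A start on the left to the H2B start on the right. Capitals mark CCAAT, the letters of the CCAAT box, or its complement ATTGG, and the octamer ATTTGCAT or its complement ATGCAAAT, which is known from H2B promoters.

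Hist1h2ac to Hist1h2bc (chr13:23683960-23684198): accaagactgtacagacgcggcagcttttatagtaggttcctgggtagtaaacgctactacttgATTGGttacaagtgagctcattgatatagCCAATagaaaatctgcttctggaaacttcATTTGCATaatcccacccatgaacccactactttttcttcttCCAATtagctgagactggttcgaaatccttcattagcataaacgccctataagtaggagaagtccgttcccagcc
Hist2h2ac to Hist2h2be (chr3:96220881-96221071): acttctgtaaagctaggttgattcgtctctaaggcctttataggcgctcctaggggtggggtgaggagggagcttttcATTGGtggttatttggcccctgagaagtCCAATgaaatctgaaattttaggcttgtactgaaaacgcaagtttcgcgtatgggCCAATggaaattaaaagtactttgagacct
Hist1h2ae to Hist1h2bg (chr13:23571221-23571399): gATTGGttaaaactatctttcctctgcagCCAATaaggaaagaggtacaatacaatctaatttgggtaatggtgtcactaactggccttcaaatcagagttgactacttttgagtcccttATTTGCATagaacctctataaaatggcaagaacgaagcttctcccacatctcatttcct

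The first stretch holds 3 CCAAT matches and 1 octamer, the next 3 CCAAT matches and no octamer, and the last 2 CCAAT matches and 1 octamer. Of all RefSeq promoter windows cut to the same lengths, 32.9, 28.5 and 27.4% hold CCAAT on either strand and 1.55, 1.29 and 1.19% the octamer. Sequence was at hand for 10 of the 11 pairs: all 10 hold CCAAT, with 2 to 5 copies, and 3 hold the octamer, Hist1h2ah to Hist1h2bk being the third. In that pair both genes were low, at 0.0314 and 0.104 FPKM. A match to these letters is a description of the sequence and not evidence of a bound factor.

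**Figure D5:**
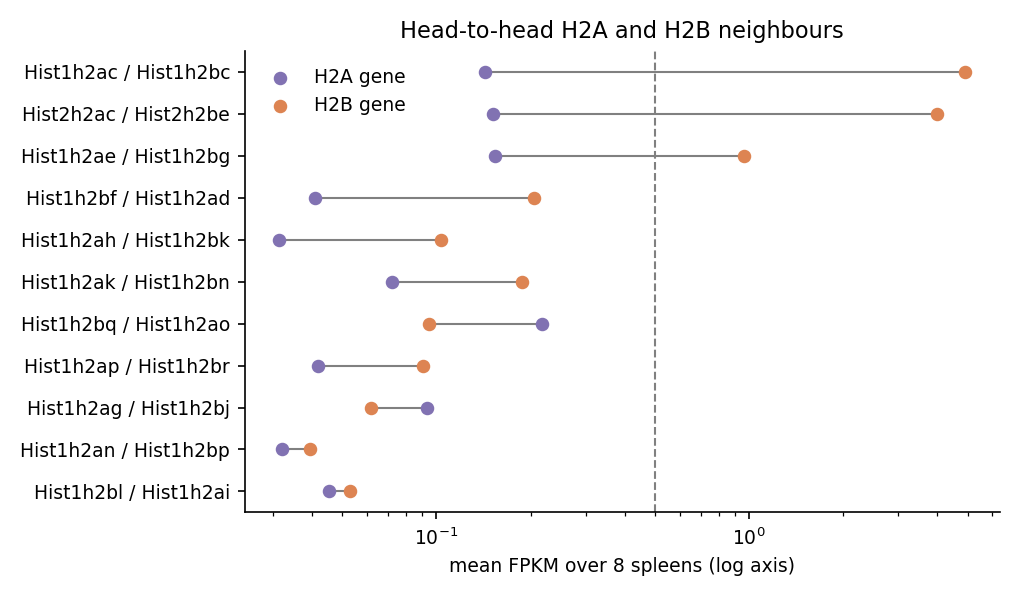
Mean FPKM over the 8 spleens (log axis) of the H2A and the H2B gene in 11 head-to-head pairs, ordered by the ratio within the pair. The H2B gene is the higher one in 9 pairs, and only in the 3 upper pairs does it pass 0.5 FPKM (dashed line), at 4.92, 3.99 and 0.960 FPKM.

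The exact sequences of these genes are alike enough to limit what can be said of single copies. Of the 65 members with a GENCODE transcript, 59 share an exact run of at least 50 bases with a member of another symbol and 56 one of at least 100 bases, and 10 of the 13 tested members are among the 59. The labels do not say how reads matching several copies were counted. The 3 tested members without such a run, Hist2h2be, Hist3h2ba and Hist4h4, had log2 differences of 0.07, -0.13 and 0.01.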

How the data were processed

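Expression in 8 spleens (4 wild-type, 4 TTPΔARE) was deposited by the authors as FPKM per RefSeq transcript. The labels give total RNA and a library made by Illumina's instructions, and the submitters' processing notes name BWA and the mouse build mm10. How fragments were counted, with which gene models, lengths and strand rule, and what was done with reads matching several places is not stated. The depth was estimated from steps between values of at most 0.5 FPKM, of which 39.9 to 43.6% were whole fragments within 0.05. This was too few to rebuild counts, so no count model was used.

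The 16608 transcripts averaging 0.5 FPKM or more were fitted with limma 3.58.1 in R 4.3.3 (eBayes with a variance trend, two-sided) on log2(FPKM + 0.5), a scale that understates changes of low transcripts, with p adjusted by Benjamini-Hochberg and called under 0.05. On simulated data with 16608 transcripts, changes of 1.3, 1.5, 2 and 3-fold were made in FPKM + 0.5, which are larger folds in FPKM for low transcripts. They were found for 54, 86, 96 and 98% of the changed transcripts. The changed transcripts were drawn at random from all those tested, so these shares were not measured for the histone members. False calls were 5 of 172. The labels give no batch, so p-values measure the spread between these spleens only. Histone type was read from the symbol, and transcripts and coordinates came from GENCODE M21 and RefSeq (GRCm38.p6).

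The members and all lists were chosen with earlier results of these data known. Named genes were, in each histone type, the member with the highest mean, the smallest p, and the largest and smallest log2 difference, with testis members, Zfp36, Slbp, Npat, Casp8ap2, H2afz, H3f3a, H3f3b and the leading members of each list, not all of which are named. Hist2h2aa1, Hist2h2be, Hist1h4m, Hist4h4, the untested members other than Hist1h2ba and Hist2h3c1, and the head-to-head pairs were named after their values were seen. Alternatives were other pseudocounts, filters, scalings and variance settings, 1 transcript per symbol, and leaving out each spleen. Python 3.11.15 with pandas 2.3.3, numpy 2.4.6 and scipy 1.17.1 was used for the tables and matplotlib 3.10.9 for the plots.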

Additional observations from a re-analysis of the deposited data

Results flagged for a closer look

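In 3 of 54 groups of 4 spleens examined, each a tested member or a summed level in a genotype, 1 spleen stood far from the other 3 by Dixon's criterion. Chance marks about 1 in 20 groups. Hist1h2bc was at 6.17 FPKM in wild-type replicate 3, against 3.80 to 4.16 FPKM in the other wild-type spleens. Hist2h2aa1 was at 2.96 FPKM in wild-type replicate 1, against 2.26 to 2.37 FPKM in the others of that group. Hist2h2aa2 was at 2.93 FPKM in TTPΔARE replicate 2, against 1.70 to 1.82 FPKM in the other TTPΔARE spleens.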

How the results depend on the processing

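No paired analysis was possible because the labels give no replicate numbers, litters or batches. Under the 9 processing alternatives the count of clustered histone transcripts past the threshold was 0 in each direction, and without a filter 6 of 66 (9.1%) had an unadjusted p under 0.05 in limma, against 17.9% of all transcripts. The median log2 difference of the members was -0.01 to 0.02 under these alternatives and -0.03 to 0.10 when 1 spleen was left out. Leaving out 1 spleen gave 0 to 1 transcripts higher, the 1 being Hist1h2bc without wild-type replicate 3, and 0 to 1 lower, Hist2h2aa2 without TTPΔARE replicate 2. Over all transcripts, leaving out 1 spleen gave 93 to 437 higher and 104 to 332 lower, fewest without TTPΔARE replicate 3, and 1 transcript per symbol gave 215 lower, where fewer rows were tested. The sign of the difference changed in at least 1 of the 17 alternatives for Hist1h4i, Hist2h2aa1 and Hist4h4, and in none of the alternatives run for the other 10 tested members (15 for Hist1h4n, 16 for Hist1h2bg, Hist1h4k and Hist3h2ba, which fell under the minimum in the rest, and 17 for the other 6). Zfp36 kept its direction and had an adjusted p of 0.0668 to 0.108 when any of 5 spleens was left out (2 wild-type, 3 TTPΔARE). Of the erythroid markers 2 to 23 passed when 1 spleen was left out, and 4 with quantile normalization. For the 53 members under 0.5 FPKM, depth, the choice of RNA, the transcript lengths and the division of reads between like copies all limit the values, and their parts were not tested.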
